A study of Mus musculus with 6 samples.

Results

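A set of 10 genes of the node of Ranvier and its flanking domains were followed in proximal sciatic nerve of injured female and male mice. These were Nfasc, Nrcam, Gldn, Ank3, Sptbn4, Cntn1, Cntnap1, Ank2, Cntn2 and Cntnap2. They were taken by symbol from 52999 gene symbols in the data, and their 131 transcript models from 140789. Each of the 10 had enough counts to enter the test, which covered 18396 genes. The rule that picked them is their role at the node, not a measured value, though earlier results of these data were known when it was set. Female and male C57BL/6 mice aged 6 to 8 weeks had the left sciatic nerve cut, and the stump on the spinal side of the cut was taken 24 h later. Both sexes had this injury, each library pooled nerves of 2 mice, and there were 3 libraries of each sex. Nerves from sham operations were not used here: the values compare injured females with injured males and do not measure the injury itself. RNA-seq libraries of poly-A RNA held 49158283 to 64802091 estimated counts in females and 51936195 to 69848769 in males.

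The node of Ranvier is the short gap between myelin segments where an axon fires its action potential. Schwann cell microvilli release gliomedin, the product of Gldn, which binds the adhesion molecules neurofascin and NrCAM on the axon. Ankyrin G, from Ank3, and the spectrin from Sptbn4 then tie these molecules and sodium channels to the axonal cytoskeleton. At the paranode beside the gap, contactin (Cntn1) and its partner Caspr (Cntnap1) on the axon bind a glial form of neurofascin, and ankyrin B, from Ank2, lies on the glial side. Further out, at the juxtaparanode, Cntn2 and Cntnap2 encode a contactin and a Caspr relative that hold potassium channels. Cell bodies of the axons lie in ganglia and spinal cord, outside the nerve, so a nerve extract holds chiefly RNA of Schwann cells and other resident cells.

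A pair of the adhesion genes occurs in alternative forms, and coding exons that separate models named below are shown for reference. Reads on these exons were not counted. Sequences are coding exons of the GENCODE M39 models on GRCm39, written 5′ to 3′ on the coding strand. Capitals mark the bases that the first-named model has and the other lacks, and the 12 lower-case bases on each side are the neighbouring transcript sequence. Nfasc-201 has a pair of exons, exon 20 (chr1:132527837-132527952) and exon 21 (chr1:132525503-132525707) on the minus strand, that Nfasc-202 lacks. The pair adds 321 bases.
Nfasc-201 exon 20: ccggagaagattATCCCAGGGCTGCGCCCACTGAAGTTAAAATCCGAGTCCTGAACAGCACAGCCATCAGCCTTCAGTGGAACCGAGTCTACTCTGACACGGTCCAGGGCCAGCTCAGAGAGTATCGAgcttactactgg
Nfasc-201 exon 21: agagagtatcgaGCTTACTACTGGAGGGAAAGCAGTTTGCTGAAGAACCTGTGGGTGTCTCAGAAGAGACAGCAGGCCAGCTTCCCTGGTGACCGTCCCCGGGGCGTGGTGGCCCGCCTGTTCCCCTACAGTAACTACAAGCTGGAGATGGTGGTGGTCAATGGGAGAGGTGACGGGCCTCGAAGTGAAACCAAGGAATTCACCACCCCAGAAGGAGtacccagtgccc
Nfasc-202 has instead a run of 3 exons, exon 25 (chr1:132515812-132516048), exon 26 (chr1:132512102-132512218) and exon 27 (chr1:132510733-132510885), and a pair of short upstream exons, exon 4 (chr1:132565602-132565619) and exon 17 (chr1:132534741-132534785). These 5 exons hold 570 bases.
Nfasc-202 exon 25: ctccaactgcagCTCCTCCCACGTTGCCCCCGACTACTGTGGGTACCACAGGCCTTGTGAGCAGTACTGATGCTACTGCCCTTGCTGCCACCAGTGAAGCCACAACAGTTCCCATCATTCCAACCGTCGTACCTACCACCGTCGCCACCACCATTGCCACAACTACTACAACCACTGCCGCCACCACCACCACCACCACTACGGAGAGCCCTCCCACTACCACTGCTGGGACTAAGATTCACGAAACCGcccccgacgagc
Nfasc-202 exon 26: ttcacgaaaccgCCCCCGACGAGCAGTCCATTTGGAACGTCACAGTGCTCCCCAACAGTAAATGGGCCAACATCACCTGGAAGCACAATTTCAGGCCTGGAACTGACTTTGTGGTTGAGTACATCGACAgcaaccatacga
Nfasc-202 exon 27: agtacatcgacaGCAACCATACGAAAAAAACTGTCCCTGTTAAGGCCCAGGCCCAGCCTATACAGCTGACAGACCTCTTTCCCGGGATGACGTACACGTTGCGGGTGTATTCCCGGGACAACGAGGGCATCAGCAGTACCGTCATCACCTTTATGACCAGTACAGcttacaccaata
Nfasc-202 exon 4: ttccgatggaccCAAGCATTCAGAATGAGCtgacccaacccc
Nfasc-202 exon 17: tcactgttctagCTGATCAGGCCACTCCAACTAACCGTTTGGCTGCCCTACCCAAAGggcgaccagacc
As background, the glial form of neurofascin carries a fibronectin repeat that the neuronal form lacks, and the neuronal form carries a mucin-like stretch that the glial form lacks. Which model encodes which form was not checked against a protein sequence.

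Nrcam-201 differs from Nrcam-202 by exon 18 (chr12:44613623-44613652), exon 27 (chr12:44624928-44624963) and exon 28 (chr12:44631618-44631770) on the plus strand. Nrcam-202 in turn extends its exon 25 by 9 bases (chr12:44623564-44623572).
Nrcam-201 exon 18: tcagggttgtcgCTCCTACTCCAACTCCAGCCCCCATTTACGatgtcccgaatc
Nrcam-201 exon 27: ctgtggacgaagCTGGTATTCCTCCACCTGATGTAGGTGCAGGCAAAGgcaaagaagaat
Nrcam-201 exon 28: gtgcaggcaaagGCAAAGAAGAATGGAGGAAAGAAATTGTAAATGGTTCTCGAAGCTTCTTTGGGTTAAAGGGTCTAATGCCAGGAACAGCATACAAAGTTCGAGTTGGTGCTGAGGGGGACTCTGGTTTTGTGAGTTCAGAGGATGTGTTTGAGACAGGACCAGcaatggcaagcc
Nrcam-202 end of exon 25: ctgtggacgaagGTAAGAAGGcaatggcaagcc
Each of these Nrcam segments has a length divisible by the codon, so the reading frame is kept with or without it. In Ank3, exons 23 (chr10:69740278-69740340) and 24 (chr10:69756268-69756321) of the main model Ank3-231 are missing from Ank3-210, a model that held under 1% of Ank3 in 4 of the 6 libraries, and the models also differ by 588 bases of exon 40. Nfasc-201, Nfasc-202, Nrcam-201, Nrcam-202 and Ank3-210 are of a later version in M39 than in the data, and only their lengths could be compared.
Ank3-231 exon 23: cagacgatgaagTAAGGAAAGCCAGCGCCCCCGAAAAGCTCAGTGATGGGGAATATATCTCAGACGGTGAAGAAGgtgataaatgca
Ank3-231 exon 24: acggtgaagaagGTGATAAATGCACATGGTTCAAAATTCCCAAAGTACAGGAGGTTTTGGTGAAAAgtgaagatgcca

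The genes fell into 2 tiers of abundance. TPM, the estimated share of transcripts after division of counts by transcript length, allows genes to be compared, and it had a mean of 40 or more over the 6 libraries for 5 genes and under 3 for the other 5. Gldn led with a mean TPM of 169, ranging from 144 to 225. Nfasc followed with a mean TPM of 80.3, Nrcam with 73.9 and Ank3 with 65.2. The TPM ranges of Nfasc and Nrcam overlapped, as did those of Nrcam and Ank3, and each of these orders held in only 4 of 6 libraries. Ank2 had a mean TPM of 43.2, below Ank3 in 6 of 6 libraries. A 20.7-fold step then separated Ank2 from Cntn1, which had a mean TPM of 2.09. Cntnap1 stood at a mean TPM of 1.80 and overlapped with Cntn1. Sptbn4 had a mean TPM of 0.410. Cntn2 and Cntnap2 closed the order with mean TPM of 0.206 and 0.197, and their ranges overlapped. The abundant tier thus held gliomedin, the adhesion molecules and both ankyrins, and the scarce tier held the spectrin and both contactin and Caspr pairs.

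**Figure D1:**
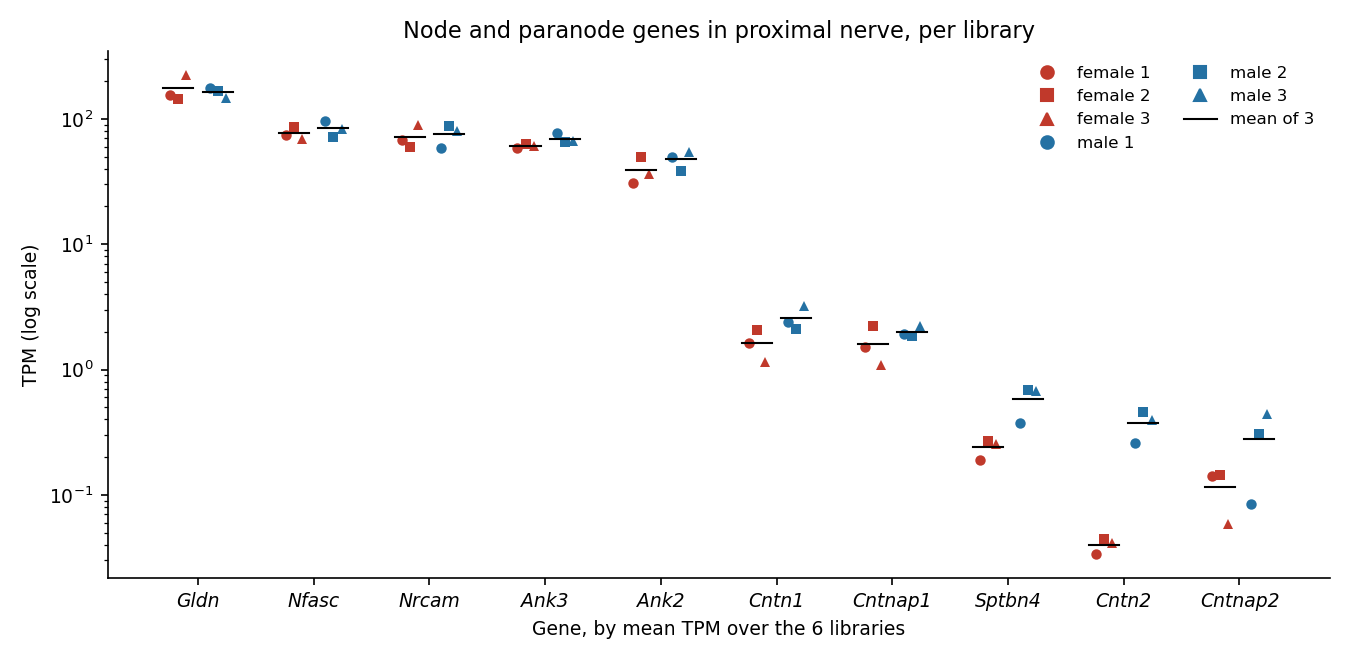
TPM of the 10 genes on a log axis in each library, with females in red, males in blue, a marker shape per replicate and a black line at the mean of 3. Gldn, Nfasc, Nrcam, Ank3 and Ank2 lie between 30.5 and 225 TPM in every library, and the other 5 genes lie at or below 3.21 TPM.

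The sex comparison asked which of these genes differed between females and males 24 h after the cut. By edgeR's quasi-likelihood test with an adjusted p under 0.1, 2 of the 10 genes passed, Cntn2 and Cntn1, both higher in males. Of all genes tested, 3.84% passed as higher in males and 1.46% as higher in females, and no member passed as higher in females. An unadjusted p under 0.05 was reached by 5 of the 10, and by 3806 of all 18396 genes tested. The median log2 fold change, male minus female, was 0.23 over the 10 genes and -0.03 over all genes tested. CPM, a count scaled to the size of its library, of 4 genes, Cntn1, Cntn2, Cntnap2 and Sptbn4, were higher in each male library than in each female library, which held for 13.9% of all genes tested. Nrcam was the 1 member with each female library above each male library, a pattern of 11.6% of all genes tested. Both genes that passed belong to the scarce tier, of which the other 3 did not pass. Of the 10 log2 fold changes 7 were above 0, against 46.7% over all genes tested.

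**Figure D2:**
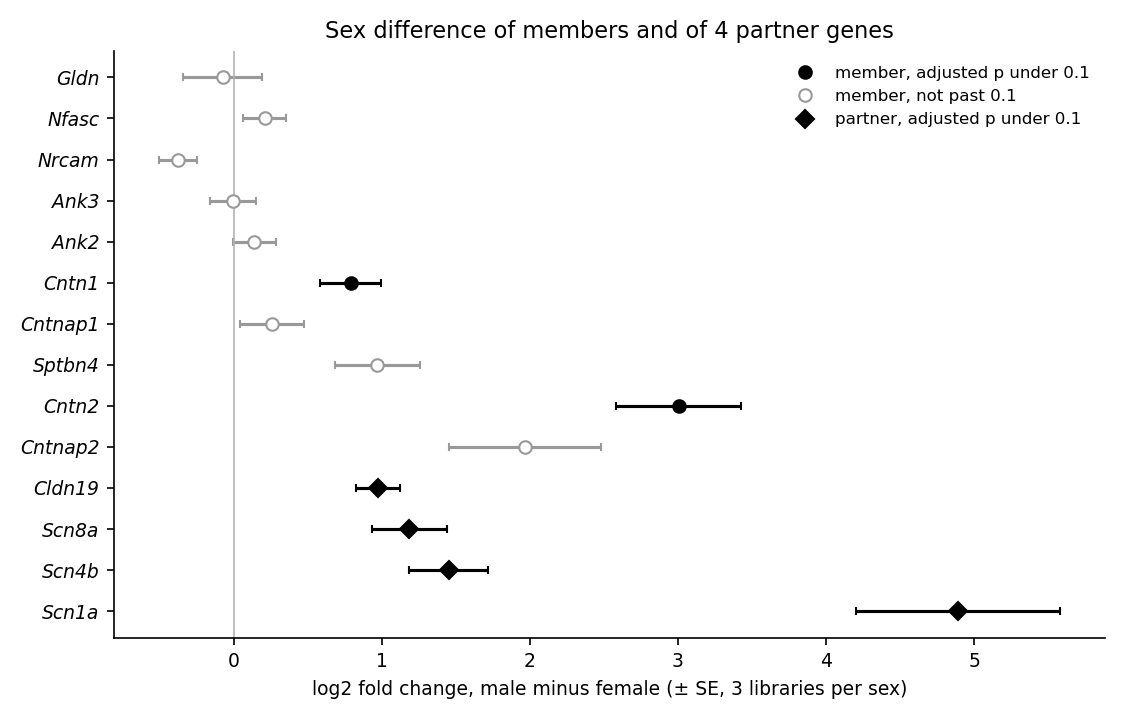
The log2 fold change, male minus female, with its SE, for the 10 genes (circles, in order of mean TPM) and for 4 of the partner genes that passed the test (diamonds). Filled symbols passed an adjusted p of 0.1, and Cntn2 has the largest value among the 10 genes at 3.00.

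Cntn2 (ENSMUSG00000053024.15, chromosome 1, 132437165 to 132470994, GRCm39) encodes the juxtaparanodal contactin. Its CPM was 0.195, 0.248 and 0.270 in females 1 to 3 and 0.994, 2.59 and 2.22 in males 1 to 3. These levels rested on 10, 14 and 17 counts in females and 67, 146 and 114 in males. The sexes did not overlap, and the lowest male was male 1. Cntn2 was higher in males by a log2 fold change of 3.00 ± 0.42 (SE), 8.02-fold (adjusted p = 0.0357 with edgeR's quasi-likelihood test). On the log2(TPM + 0.1) scale the log2 fold change was 1.73 and still passed. The call was lost without female 1 (log2 fold change 2.88, adjusted p = 0.163) and without male 3 (2.89, adjusted p = 0.143), settings in which 1 gene and 7 genes of the whole series still passed. Cntn2 lies 21433 bases from Nfasc on the same strand, without overlap.

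Cntnap2 (ENSMUSG00000039419.18, chromosome 6, 45036291 to 47281147) encodes the partner of the Cntn2 protein. Its CPM was 0.430, 0.479 and 0.286 in females and 0.594, 1.77 and 2.32 in males, from 18 to 27 counts in females and 40 to 119 in males. All males were above all females, with male 1 close to female 2. Cntnap2 had a log2 fold change of 1.96 ± 0.51, a 3.90-fold difference whose adjusted p of 0.1003 by edgeR's quasi-likelihood test lay just outside the threshold. It passed in 5 of 16 other settings, with adjusted p-values from 0.00529 under DESeq2's Wald test to 0.420 on the log2(TPM + 0.1) scale over all 16. On that TPM scale its log2 fold change was 0.71, and with a transcript-length offset it was 1.34 (adjusted p = 0.243). On the TPM scale its sexes overlapped, since male 1 had 0.0845 TPM, below females 1 and 2 with 0.142 and 0.145.

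Cntn1 (ENSMUSG00000055022.15, chromosome 15, 91948938 to 92240393) encodes the paranodal contactin. Its CPM was 4.90, 6.52 and 4.76 in females and 8.67, 7.85 and 11.5 in males, so the lowest male stood above the highest female. Cntn1 was 1.73-fold higher in males, a log2 fold change of 0.79 ± 0.21 with an adjusted p of 0.0998 by edgeR's quasi-likelihood test. Of 16 other settings 5 kept the call, and it was lost without female 1 (adjusted p = 0.293), female 2 (0.122), female 3 (0.114), male 1 (0.157) and male 3 (0.307). Its log2 fold change stayed between 0.62 and 0.95 throughout.

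Cntnap1 (ENSMUSG00000017167.7, chromosome 11, 101061349 to 101082747), the gene of Caspr, did not follow Cntn1 past the threshold. Its CPM was 6.29, 8.35 and 4.77 in females and 8.09, 7.02 and 8.11 in males. Female 2 was the highest of the 6 libraries and female 3 the lowest. It differed by a log2 fold change of 0.26 ± 0.22 (adjusted p = 0.536 with edgeR's quasi-likelihood test). Whether the sex differences of Cntn1 and Cntnap1 differed from each other was not tested.

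Sptbn4 (ENSMUSG00000011751.17, chromosome 7, 27055808 to 27147111) encodes the spectrin of the nodal cytoskeleton. Its CPM was 0.957, 1.06 and 1.05 in females, a narrow band, and 1.32, 2.23 and 2.48 in males. The sexes did not overlap and male 1 was nearest to the females. The log2 fold change of 0.97 ± 0.29, 1.96-fold, had an adjusted p of 0.126 by edgeR's quasi-likelihood test. It passed in 3 of 16 other settings, with adjusted p-values over all 16 from 0.0495 under DESeq2's Wald test to 0.363 without male 3.

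Ank3 (ENSMUSG00000069601.15, chromosome 10, 69234603 to 69863268), the ankyrin that anchors nodal channels, had the smallest difference of the 10. Its CPM was 259, 279 and 292 in females and 338, 230 and 259 in males, so the male libraries spanned the whole female range. The log2 fold change was -0.005 ± 0.16 (adjusted p = 0.989 with edgeR's quasi-likelihood test), and its sign turned under 7 of 16 settings. With a length offset it was 0.22 (adjusted p = 0.406). On the TPM scale the males stood above the females, at 69.4 ± 6.57 (SD, n = 3) against 61.0 ± 2.56 (SD, n = 3).

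Ank2 (ENSMUSG00000032826.20, chromosome 3, 126715261 to 127292999), the paranodal ankyrin, had CPM of 89.2, 108 and 90.9 in females and 114, 86.7 and 117 in males. Male 2 was the lowest of the 6 libraries and male 3 the highest. Between the sexes it differed by 0.14 ± 0.14 on the log2 scale (adjusted p = 0.618 with edgeR's quasi-likelihood test).

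Nfasc (ENSMUSG00000026442.15, chromosome 1, 132492428 to 132669564), present on both sides of the junction, had CPM of 349, 377 and 427 in females and 502, 389 and 441 in males. Males 2 and 3 lay within or just above the female range and male 1 was the highest. Its male minus female log2 fold change was 0.21 ± 0.14 (adjusted p = 0.439 with edgeR's quasi-likelihood test).

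Gldn (ENSMUSG00000046167.6, chromosome 9, 54193617 to 54249070), the Schwann cell ligand, had CPM of 412, 382 and 766 in females and 527, 523 and 433 in males. Female 3 stood far above the other 5 libraries and the males lay between the females. The log2 fold change was -0.07 ± 0.27 (adjusted p = 0.901 with edgeR's quasi-likelihood test). Without female 3 the sign turned, to 0.32 (adjusted p = 0.206).

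Nrcam (ENSMUSG00000020598.17, chromosome 12, 44375287 to 44651976), the second axonal receptor of gliomedin, had CPM of 176, 151 and 202 in females and 128, 141 and 138 in males. Each female was above each male, 1.30-fold on the fitted scale. The log2 fold change was -0.38 ± 0.13 and missed the threshold (adjusted p = 0.162 with edgeR's quasi-likelihood test). With a transcript-length offset the value was 0.07 (adjusted p = 0.890), and on the log2(TPM + 0.1) scale it was 0.07 (adjusted p = 0.879), so the direction of Nrcam depended on how its transcript lengths were counted.

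Summed markers of oligodendrocytes and central neurons were higher in each male, as were Cntn1, Cntn2, Cntnap2 and Sptbn4 of the scarce tier. Cntnap1, also of that tier, overlapped between the sexes. The summed CPM of 10 oligodendrocyte markers was 4.37 to 5.35 in females and 13.4 to 30.7 in males, and 4 of its 8 tested genes passed as higher in males. Ermn and Olig2 had no count in any female. Mobp, a protein of central myelin, was at 0.449, 0.709 and 0.620 CPM in females and 6.32, 18.4 and 19.4 CPM in males. The summed CPM of 11 central neuron markers was 9.08 to 12.9 in females and 25.6 to 54.0 in males, with 9 of 11 tested genes higher in males. Of 8 astrocyte markers 5 passed as higher in males, with sums of 145 to 159 against 161 to 177 CPM. In each of the oligodendrocyte and central neuron lists male 1 had the lowest male sum, as it had the lowest male CPM of Cntn2, Cntnap2 and Sptbn4. In the astrocyte list male 1 instead had the highest sum, at 177 CPM, and for Cntn1 the lowest male was male 2. Cntn2 is also a gene of oligodendrocytes, and Cntnap2 and Sptbn4 are genes of central neurons. The part of these cells in the member results was not tested. Of 16 markers of myelinating Schwann cells 8 passed as higher in males and their sum was 25993 to 35280 CPM in females and 58939 to 69276 CPM in males. In bulk nerve, more cells of a type and more RNA per cell cannot be told apart.

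Other markers followed single libraries. The sum of 10 skeletal muscle markers was 378 and 535 CPM in females 1 and 2 and 609 CPM in male 3, against 36.9 CPM in female 3 and 9.48 and 6.11 CPM in males 1 and 2. Of its 9 tested genes 3 passed as higher in females. Adipocyte marker sums were 408 and 247 CPM in females 1 and 2 and 29.96 to 181 CPM in the other libraries. Leukocyte marker sums were 1778 to 2703 CPM in females and 1076 to 2326 CPM in males. Sensory neuron markers summed to 15.4 to 21.9 CPM in females and 19.99 to 22.3 CPM in males. Endothelial sums were 203 to 304 and 210 to 234 CPM, and perineurial and endoneurial fibroblast sums were 4200 to 5718 and 4579 to 6119 CPM. No gene of these last 5 lists passed the test.

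**Figure D3:**
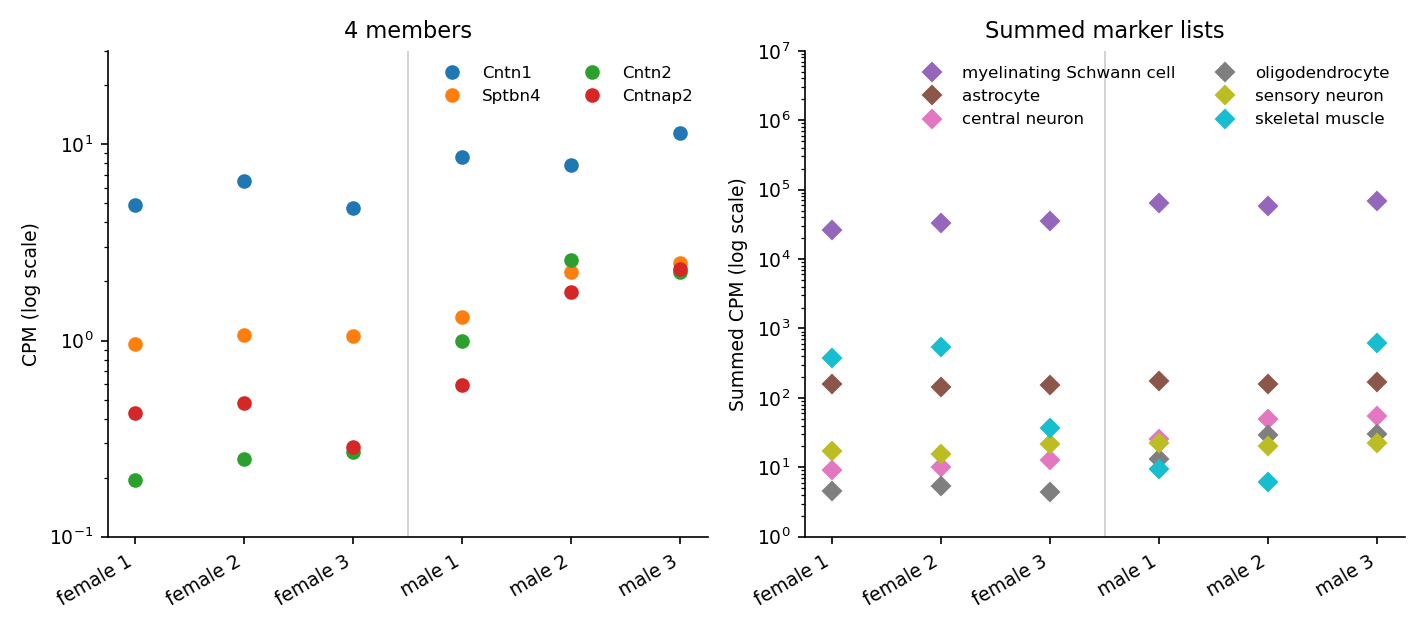
CPM of Cntn1, Sptbn4, Cntn2 and Cntnap2 (left) and summed CPM of 6 marker lists (right) in each library, both on log axes, with a grey line between the sexes. The 4 genes and the central neuron, oligodendrocyte and Schwann cell sums are higher in the male libraries, while the muscle sum is high in females 1 and 2 and in male 3.

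Partner genes of the same domains were read from 5 lists. The lists were written with results of these data known, so their counts and medians are descriptions only. Of the 54 partners tested, 5 passed as higher in males and 0 as higher in females, against 3.84% and 1.46% of all genes tested. Of 12 nodal channel genes 4 passed, with a list median log2 fold change of 0.84 against -0.03 over all genes. Scn1a, a sodium channel of central and large sensory neurons, had CPM of 0.0195, 0.0709 and 0.111 in females and 0.786, 2.76 and 2.81 in males, from 1, 4 and 7 counts against 53, 156 and 144 (log2 fold change 4.89 ± 0.69, adjusted p = 0.0357 with edgeR's quasi-likelihood test). As in Cntn2, the females were near 0 and male 1 was the lowest male.

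Scn4b, a sodium channel subunit, had CPM of 2.99, 4.52 and 2.94 in females and 8.27, 7.64 and 12.7 in males, a log2 fold change of 1.45 ± 0.27 (adjusted p = 0.0475 with edgeR's quasi-likelihood test). Scn8a, the main sodium channel of mature nodes, had CPM of 3.71, 5.85 and 3.88 in females and 7.73, 10.01 and 12.8 in males, a 2.27-fold difference (adjusted p = 0.0666 with edgeR). For both genes the lowest male stood above the highest female. Among 12 paranodal scaffold and junction genes 1 passed, Cldn19, a claudin of Schwann cell junctions. Cldn19 had CPM of 351, 446 and 424 in females and 775, 736 and 889 in males, 1.97-fold (adjusted p = 0.0357 with edgeR's quasi-likelihood test). The median log2 fold change of this list was 0.06. None of 11 nodal matrix and microvillus genes, 12 juxtaparanodal genes or 7 internodal adhesion genes passed, and their medians were 0.09, 0.26 and 0.23. All 5 partner calls were lost without female 1 and without male 3.

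**Figure D4:**
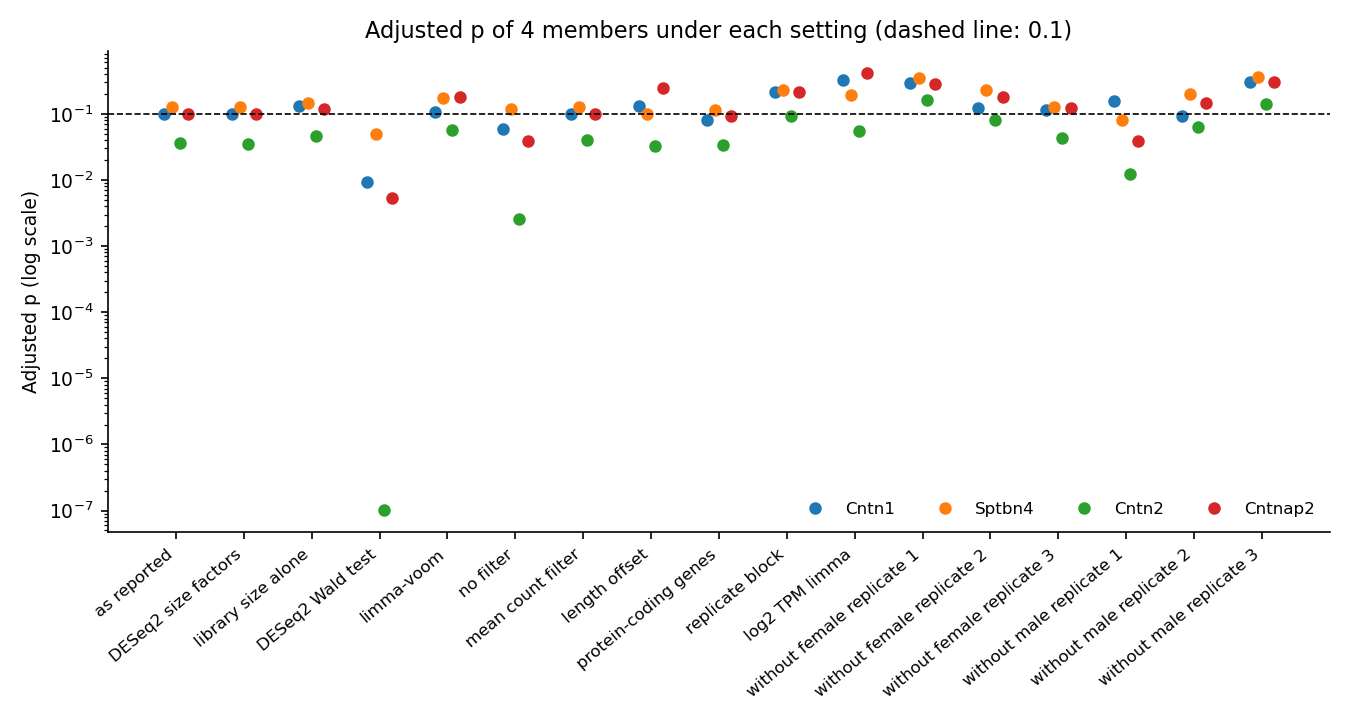
Adjusted p on a log axis for Cntn1, Sptbn4, Cntn2 and Cntnap2 as reported and under 16 other settings, with a dashed line at 0.1. Cntn2 lies above the line only without female 1 and without male 3, and the other 3 genes cross it repeatedly.

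Transcript models showed how the counts of each gene were made up. Salmon assigns each read to transcript models by their likelihood, so shares between models that have sequence in common are estimates. By count, Nfasc-202 held 52.1%, 52.7% and 59.6% of Nfasc in females and 56.6%, 63.0% and 58.3% in males. Nfasc-201 held 35.7%, 34.97% and 35.3% in females and 37.0%, 34.2% and 38.3% in males. The models are listed at 9739 and 5072 bases, so per length the order was the other way round, with Nfasc-201 over Nfasc-202 at a TPM ratio of 1.18 ± 0.07 in females and 1.16 ± 0.11 in males (SD, n = 3 each). The M39 release lists Nfasc-201 at 9721 bases, so this ratio depends on the shorter model in the data. Both models were thus assigned a large part of Nfasc in every library, and their ratio overlapped between the sexes. Use of the exon pair and the exon run shown above was not tested.

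Nrcam was led by Nrcam-202, the model with the 9-base extension, at 63.5%, 70.9% and 74.1% in females and 78.2%, 64.9% and 69.2% in males. Nrcam-201, with the 30-, 36- and 153-base segments, made up 7.48% of counts on average. The TPM ratio of Nrcam-202 to Nrcam-201 was 3.79, 3.55 and 9.41 in females and 17.5, 18.8 and 15.2 in males. Nrcam-202 thus prevailed in each library, and the sexes did not overlap. The data list Nrcam-201 at 4469 bases and Nrcam-202 at 6275, where M39 lists 11000 and 10790. The models in the data thus differ by more than those segments, and use of the segments themselves was not tested. Nrcam-214, a model of 916 bases near the 3′ end, held 4.52%, 6.40% and 16.2% in females and 14.6%, 28.2% and 23.0% in males. It supplied 23.4% to 60.7% of Nrcam TPM in females and 56.8% to 74.8% in males. Nrcam TPM without it was 52.0, 40.1 and 35.2 in females and 25.3, 22.2 and 25.0 in males, a separation in the direction of the CPM values.

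Ank3-231, with exons 23 and 24, led Ank3 at 46.1% to 58.1% in females and 56.3% to 60.6% in males. Ank3-247 held 24.1%, 20.4% and 8.21% in females and 12.2%, 2.88% and 6.32% in males. Ank3-207 held 4.30% to 14.3% and 9.88% to 16.7%. Ank3-210 held 11.6% and 11.2% in females 1 and 2, 0.574% in female 3 and an estimated 0 in each male. By count, Ank2 was led by Ank2-201 at 55.3% to 68.6% in females and 46.2% to 57.9% in males. Ank2-216, a retained-intron model of 2359 bases in a single exon at the 3′ end, was at an estimated 0 in female 1. It held 11.7% and 29.7% in females 2 and 3, and 24.5%, 43.0% and 33.2% in males. Of Ank2 TPM, Ank2-216 supplied 22.5% and 47.5% in females 2 and 3, and 40.9%, 64.5% and 51.5% in males 1 to 3. Per length it thus stood above Ank2-201 in female 3 and in each male.

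**Figure D5:**
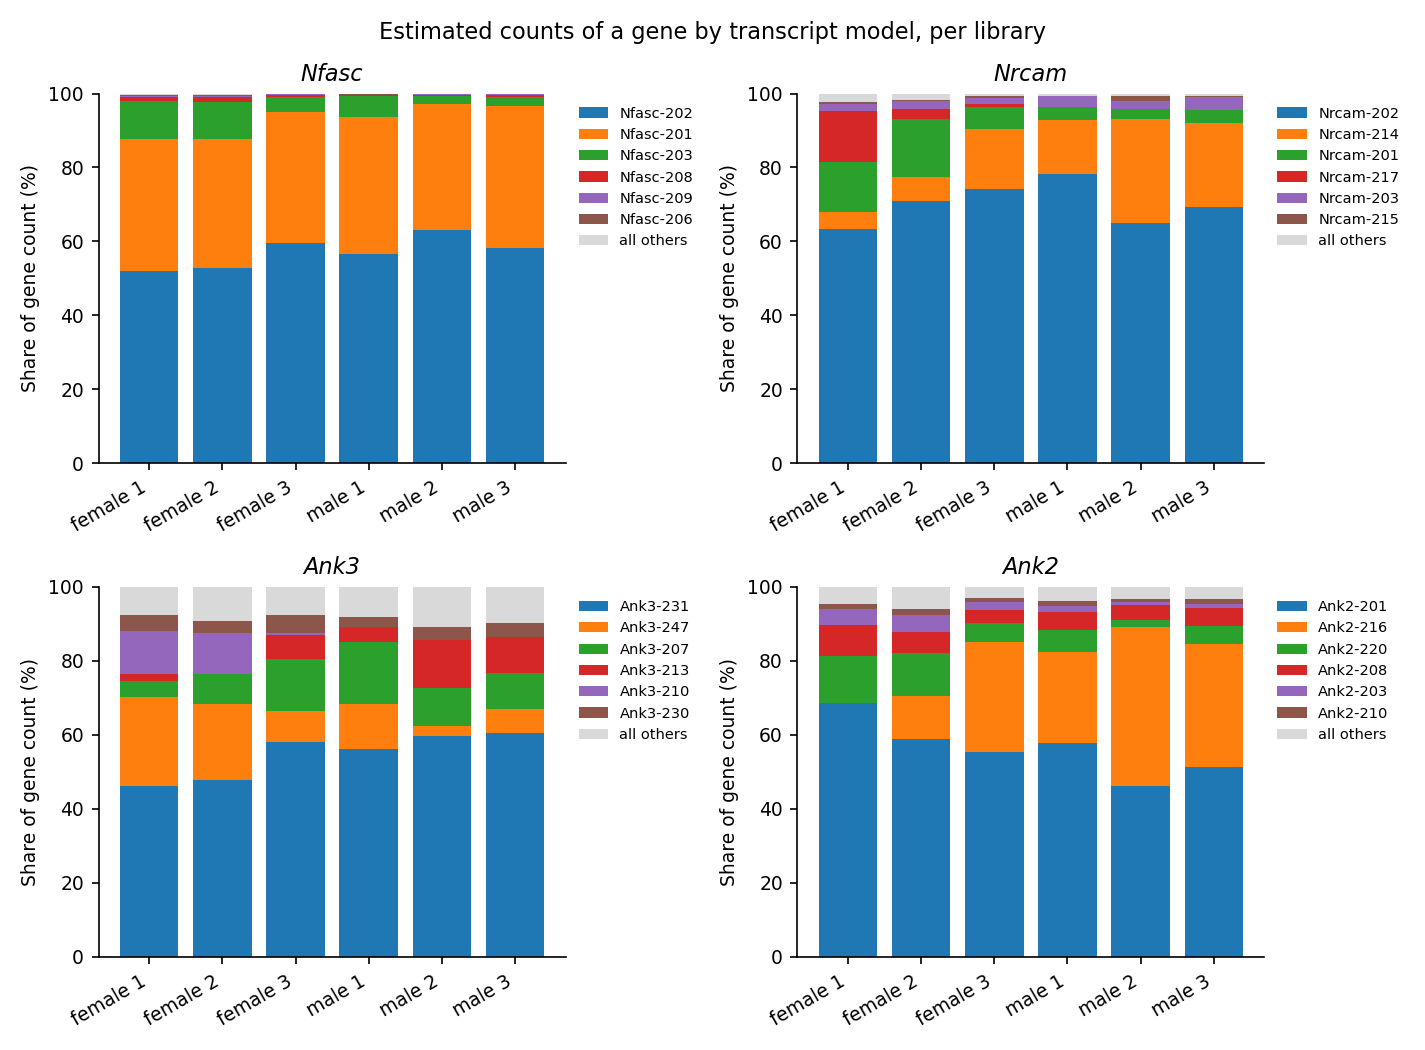
Share of each gene's estimated count, in percent, by transcript model in each library for Nfasc, Nrcam, Ank3 and Ank2, with the 6 largest models in colour and the rest in grey. Nfasc keeps nearly the same 2 main models throughout, while Nrcam-214 and Ank2-216 are smallest, and Ank3-210 largest, in females 1 and 2.

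The leading model of Cntn1, Cntn2 and Cntnap2 changed between libraries. Cntn1-204 held 60.2% and 79.0% of Cntn1 in females 1 and 2, an estimated 0 in female 3, and 77.7% to 88.3% in males. Cntn1-201 held 85.0% in female 3 and 0 to 9.01% elsewhere, and its M39 coding length equals that of Cntn1-204 at 3060 bases. Cntn1-203, a retained-intron model, held 11.1% to 23.1%. Cntn2-201 held 100% in each female, and 98.1%, 64.0% and an estimated 0 in males 1 to 3. Cntn2-202, a retained-intron model of 7334 bases, held 35.1% in male 2 and 94.5% in male 3. Cntnap2-205 and Cntnap2-202 divided Cntnap2 so that Cntnap2-202, with the longer coding sequence, was at 0, 0 and 9.49% in females and 100%, 56.9% and 54.3% in males. Sptbn4-203 held 61.4% to 86.1% of Sptbn4 in females and 78.0% to 98.2% in males, and the full-length Sptbn4-201 the rest. Cntnap1-201 and the single Gldn model held nearly all of their genes. At 10 to 146 counts for Cntn2 and 18 to 119 for Cntnap2, the division between models was not resolvable at this depth.

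No member transcript passed the transcript test of edgeR (0 of 61 tested, smallest adjusted p = 0.161), where 0.0161% of 49624 transcripts passed. Of the 61, 10 had an unadjusted p under 0.05, and limma-voom also called 0. Without female 3, 10 passed: Ank3-210, Ank3-232, Ank3-235, Ank3-236, Cntnap2-202, Nfasc-202, Nrcam-201, Nrcam-214, Nrcam-216 and Nrcam-217. In that setting 2609 genes of the whole series passed, against 975 with all 6 libraries. The share over all transcripts was not counted for the unadjusted p or without female 3, so neither count is read as particular to the members.

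The share test of edgeR, which sets each transcript against the others of its gene, called 4 of 58 member transcripts, where 0.675% of 42201 transcripts passed. Ank3-210, Nrcam-216 and Nrcam-217 had lower shares in males and Ank3-232 a higher one. Each has an estimated 0 in at least 1 library, as had 228 of the 285 transcripts called in all. The limma diffSplice test called 5 others: Ank2-216, Ank3-213, Nfasc-203, Nrcam-201 and Nrcam-214. No member transcript was called by both tests, and on simulated counts each test called more unchanged than changed transcripts, so these calls are given as descriptions only.

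The position of the models within their genes moved with these shares. Over 4015 other genes, models confined to the 5′ part of their gene (up to 0.5 of its span) took 1.51%, 1.28% and 0.863% of counts in females and 0.884%, 0.839% and 0.862% in males. The ratio of such 3′ to such 5′ models was 3.42 and 4.23 in females 1 and 2, 8.26 in female 3 and 7.95, 10.6 and 8.77 in males. Within Nrcam the 3′ models summed to 6.57%, 8.54% and 18.0% in females and 17.9%, 30.7% and 26.4% in males. Within Ank3 they summed to 7.73%, 6.53% and 12.8% in females and 10.6%, 22.1% and 17.5% in males. Within Ank2 they summed to 73.6%, 76.4% and 88.3% in females and 86.5%, 91.4% and 88.1% in males. Within Nfasc they were under 1% in every library and ran the other way, at 0.560%, 0.427% and 0.140% in females and 0.272%, 0.152% and 0.178% in males. In Nrcam, Ank3 and Ank2, females 1 and 2 had the lowest sums of the 6 libraries, as they had the lowest ratios in the series. The part of read position in the transcript shares was not tested.

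Over the 6 libraries, the 2 genes whose log2 CPM was most like that of each member were found among all genes tested, and Pearson's r is given as a description. Cntn2 was most like Crmp1 and Mobp (r = 0.996 for both), and Cntnap2 most like Tmem178b and Map2 (r = 0.993 for both). Sptbn4 was most like Hoxb8 and Gabra2 (r = 0.997 for both), and Cntn1 most like BC043934 (r = 0.998) and Gm35835 (r = 0.997). Mobp is a gene of central myelin, and Map2 and Gabra2 are genes of neurons. The other genes named for these members were not assigned to a cell type, and a shared source was not tested. Nfasc was most like Tmem161a (r = 0.994) and Grb7 (r = 0.993), Nrcam like Cabp1 (r = 0.996) and Gm26569 (r = 0.995), and Gldn like Sec1 (r = 0.997) and Mesd (r = 0.992). Ank3 was most like Cpeb3 and Dhx58os (r = 0.987 for both), Ank2 like Btbd8 (r = 0.998) and Gm8765 (r = 0.996), and Cntnap1 like Osr2 (r = 0.995) and Gm20089 (r = 0.992). Among the members themselves Sptbn4 and Cntnap2 were the closest pair (r = 0.972), and Cntnap1 and Nrcam the most opposed (r = -0.899). The points share libraries and depth, and each value was picked as the highest or next highest among 18396 genes.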

How the data were processed

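The members, partner lists, marker lists and tests were chosen with earlier results of these data known. Per the labels, poly-A RNA from pooled proximal nerve was sequenced from stranded libraries. The submitters' processing notes name Trimmomatic 0.39, Salmon 1.5.2 and MultiQC 1.9. The authors deposited Salmon's estimated counts, TPM and effective length per transcript, without normalisation of the counts. The annotation release is not certain from the sources, so coordinates and exons came from GENCODE M39 on GRCm39, which has 73.4% of the transcript models in the same version, 97 of the 131 member models among them.

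Counts and TPM were summed per gene symbol and counts rounded. In R 4.3.3, edgeR 4.0.16 filtered genes with filterByExpr, scaled libraries by TMM and ran the quasi-likelihood test with sex as the only term. The SE is the log2 fold change divided by the square root of F. P-values were adjusted over all genes (threshold 0.1) by Benjamini and Hochberg, and measure the spread between pools of 2 mice. Transcripts were tested in the same way, and shares with diffSpliceDGE. All 10 members were named, with their transcripts of 10% or more of the gene count or past a test, up to 4 called genes per partner list and direction, and the 2 genes most like each member; models outside this rule that are named were chosen after their values were seen. Of 56 listed partner symbols, Nherf1 and Pals2 are absent from the data and were read as Slc9a3r1 and Mpp6. Hapln2, Mag, Cldn5 and Gjb1 stand in a partner and a marker list.

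The scripts were tested on simulated counts, where the gene test recovered most changes and the share tests made more false than true calls. Alternatives were DESeq2 1.42.0, limma 3.58.1 (voom, diffSplice and log2(TPM + 0.1)), other scalings and filters (a mean count of 10), a length offset, a test of protein-coding genes only, replicate number as a block, a threshold of 0.05 and each library left out; the newer quasi-likelihood fit was added after the data were seen. No library was a copy of another of the same sex (chi-square per degree of freedom 48.7 to 147), and pairs across the sexes were not compared. Deposited effective lengths served only for the offset. Some called genes of the lists are not reported here.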

Additional observations from a re-analysis of the deposited data

How the results depend on the processing

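Genes passing in the whole series numbered 975 as reported, 2432 with DESeq2's Wald test, 1614 without a filter, 461 on the log2 TPM scale, 56 with the replicate number as a block and 279 at an adjusted p under 0.05, and leaving out 1 library gave 1 (without female 1) to 2609 (without female 3), with 7 without male 3. Members passing numbered 2 as reported, 4 with DESeq2's Wald test (Cntn1, Cntn2, Cntnap2 and Sptbn4), and 1 (Cntn2) with library size alone, limma-voom, the mean count filter, the replicate block, log2 TPM and an adjusted p under 0.05. Leaving out 1 library gave 0 to 3 members. Partner genes passing numbered 5 as reported, 14 with DESeq2's Wald test, 10 without a filter, 1 with the replicate block, 3 with log2 TPM and 0 to 11 with 1 library left out. Member transcripts passing numbered 0 as reported and 0 to 10 with 1 library left out. Member transcripts with a changed share numbered 4 as reported, 8 with the newer quasi-likelihood fit and 2 to 11 with 1 library left out. A missing library leaves fewer samples, and the cause of these changes was not tested.

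Signs turned only in members below the threshold. Ank3 turned to 0.0012 with DESeq2 size factors, 0.22 with the length offset, 0.027 with protein-coding genes and 0.18 with log2 TPM, and ran from -0.18 to 0.14 with 1 library left out, above 0 without female 3, male 2 or male 3. Nrcam turned to 0.072 with the length offset and 0.068 with log2 TPM. Gldn turned to 0.00081 with the replicate block, and ran from -0.26 to 0.32 with 1 library left out, above 0 without female 3 or male 3. Replicate numbers do not pair the libraries: deviations of same-numbered libraries from their sex means correlated at -0.04, -0.30 and -0.30, the labels do not say that a number marks a shared litter or day, and no library correlated best with its own number. Low counts limit Cntn2, Cntnap2 and Sptbn4.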
